A study of Homo sapiens with 8 samples.

Results

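The APOBEC3 cytidine deaminases of human breast cancer cells were followed probe by probe on 2 expression array platforms. The members were all probes annotated to the 7 genes APOBEC3A, APOBEC3B, APOBEC3C, APOBEC3D, APOBEC3F, APOBEC3G and APOBEC3H. On the Illumina bead arrays these were 11 of 28098 probes with 1 gene symbol, covering all 7 genes. On the Affymetrix arrays they were 7 of 41091 probe sets with 1 gene symbol, covering 5 genes, and 2 further probe sets annotated to several genes, which are described without a test. APOBEC3A was thus read there only by a probe set shared with the hybrid gene APOBEC3A_B, and APOBEC3H was not analysed on that platform.

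APOBEC3 enzymes turn cytosine into uracil in single-stranded DNA and belong to innate defence against retroviruses and retrotransposons. APOBEC3G is a mainly cytoplasmic member, abundant in lymphocytes, and is the classic target of the HIV-1 protein Vif. APOBEC3A and APOBEC3B can act on the cell's own genome and leave cytosine mutations in tumours, and APOBEC3B is often expressed in breast cancer cells. The 7 genes stand in a row on chromosome 22, in the order A, B, C, D, F, G, H, between CBX6 and CBX7, per the RefSeq annotation of GRCh38.p14. They arose by duplication and are close paralogs, so a probe of 1 member may also capture another. The probe sequences were not used here and this was not checked.

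The study profiled total RNA of 8 arrays, 2 in each of 4 groups, called A and B after their titles. LM2, a highly metastatic line derived from MDA-MB-231 by selection for growth in the lung, was compared with poorly metastatic MDA-MB-231 on the Illumina arrays. LM2 cells with over-expression of miR-126 (LM2-miR126) were compared with LM2 control cells on the Affymetrix arrays. The Illumina arrays are titled MDAtr and LM2tr, and what tr stands for was not settled here. All cells were grown in DMEM with serum. The labels give neither the vector of the 2 modified LM2 groups nor whether they are clones, nor is it stated that A and B are separate cultures. P-values therefore measure only the spread between these arrays, which may be technical, and the number of arrays limits the precision. The over-expressed microRNA, which neither platform measured, is shown as its mature RefSeq sequences with the seed, bases 2 to 8, in capitals. The labels do not say which arm was intended.
hsa-miR-126-3p: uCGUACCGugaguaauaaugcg
hsa-miR-126-5p: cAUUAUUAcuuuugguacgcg

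The line was checked against its markers. All 6 genes fixed as high in this line (VIM, CD44, EGFR, MSN, CAV1 and ANXA1) lay above the upper quartile of all probes on both platforms. Of 7 genes fixed as low, the hormone receptor genes ESR1 and PGR lay below it on both platforms and the other 5, ERBB2, GATA3, EPCAM, KRT18 and KRT19, lay above it. Of lymphocyte markers, none of 9 measured lay above the upper quartile on either platform. The 2 LM2-miR126 arrays were further apart than the 2 LM2 control arrays. The absolute difference averaged 0.237 log2 between LM2-miR126 arrays A and B and 0.106 log2 between the LM2 control arrays. Between the means of these groups it averaged 0.143 log2. On the Illumina arrays it averaged 0.159 log2 between the LM2 arrays and 0.194 log2 between the MDA-MB-231 arrays. Between the means of those groups it averaged 0.167 log2. Means of 2 arrays vary less than single arrays, so the values within and between groups are not like for like.

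The first comparison asked how transcripts of LM2 differ from those of the parental line. APOBEC3G was higher in LM2 on both of its probes, 5.49-fold and 2.59-fold. Of 4 APOBEC3F probes, 1 showed a rise of 2.51-fold, near that of the second APOBEC3G probe. The other members differed by 0.54 log2 or less. The family was chosen from the values of this comparison, in which APOBEC3G stood among the largest rises, so they are given as a description with no test. Illumina values are given as deposited intensities on an arbitrary linear scale whose median over all probes was 94.4 and whose upper quartile was near 128. Differences are on the log2(intensity + 16) scale. The background was not fully subtracted, so folds of dim probes are understated. In RNA of whole cultures, fewer cells expressing a gene and less RNA per cell cannot be told apart.

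**Figure D1:**
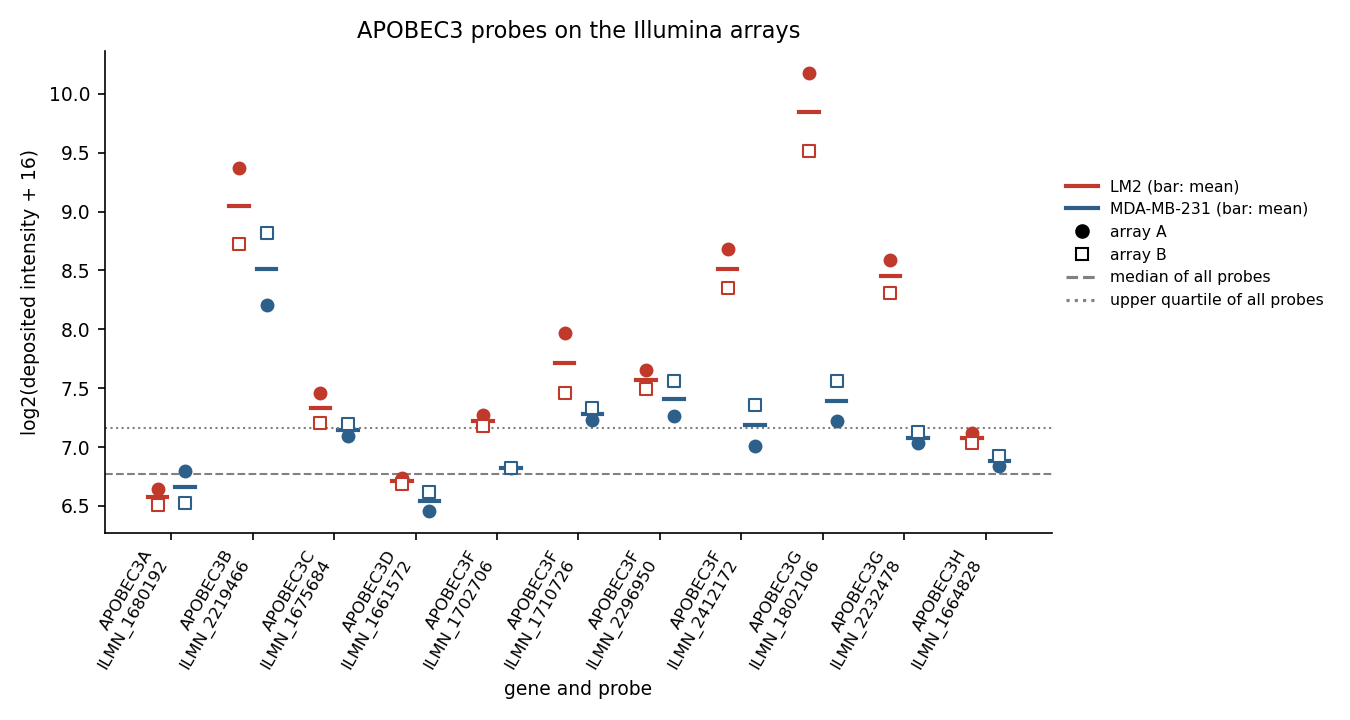
Log2(deposited intensity + 16) of each APOBEC3 probe on the 2 LM2 arrays (red) and the 2 MDA-MB-231 arrays (blue), with bars at the group means and grey lines at the median and upper quartile of all probes. Both APOBEC3G probes and the APOBEC3F probe ILMN_2412172 stand clearly apart, while APOBEC3A and APOBEC3D lie near the median of all probes in both lines.

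The brighter APOBEC3G probe, ILMN_1802106, read 1146 and 715 on LM2 arrays A and B, against 134 and 172 on MDA-MB-231 arrays A and B. The groups did not overlap, and MDA-MB-231 lay near the upper quartile of all probes. Its log2 level was 9.85 ± 0.47 in LM2 and 7.39 ± 0.24 in MDA-MB-231 (SD, n = 2 each), a difference of 2.46 log2, or 5.49-fold. Ranked by this difference, APOBEC3G stood at place 6 of 18852 genes, each represented by its brightest probe. The other APOBEC3G probe, ILMN_2232478, read 369 and 302 in LM2, against 115 and 124 in MDA-MB-231. That is a difference of 1.37 log2, or 2.59-fold, in the same direction and smaller, with MDA-MB-231 below the upper quartile of all probes. The difference stayed between 2.12 and 2.79 log2 on the first probe and between 1.235 and 1.51 log2 on the second when any 1 array was left out.

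APOBEC3F, a close relative of APOBEC3G that also restricts retroviruses, was read by 4 probes that did not move alike. ILMN_2412172 read 394 and 311 in LM2, against 113 and 148 in MDA-MB-231, a difference of 1.33 log2 or 2.51-fold. ILMN_2296950, annotated to the same transcript, read 186 and 164 in LM2, against 138 and 173 in MDA-MB-231. These groups overlapped, and the means differed by 0.16 log2, or by 0.013 to 0.31 with an array left out (the lowest without MDA-MB-231 array A, the highest without its array B). ILMN_1702706 read 138 and 129 in LM2, against 97.2 and 97.0 in MDA-MB-231, a difference of 0.40 log2 near the level where unsubtracted background makes up much of the signal. ILMN_1710726 read 235 and 160 in LM2, against 134 and 145 in MDA-MB-231, a difference of 0.44 log2 that was 0.18 without LM2 array A and 0.69 without LM2 array B. The size of the APOBEC3F difference thus depends on the probe, and the mean of its probes gave 0.58 log2, against 1.33 for the brightest probe alone.

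APOBEC3B, the mutator most often linked to breast cancer, read 647 and 407 in LM2, against 280 and 434 in MDA-MB-231. The groups overlapped, since MDA-MB-231 array B exceeded LM2 array B. The mean difference was 0.54 log2. It was 0.21 without LM2 array A and 0.23 without MDA-MB-231 array A, but 0.86 without LM2 array B and 0.84 without MDA-MB-231 array B. APOBEC3C, which consists of a single deaminase domain, read 160.0 and 131 in LM2, against 121 and 131 in MDA-MB-231. LM2 array B and MDA-MB-231 array B were at nearly the same intensity (131.2 and 131.1), and the difference of 0.18 log2 was 0.054 without LM2 array A and 0.31 without LM2 array B.

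APOBEC3H, a member whose protein stability varies between human haplotypes, read 123 and 115 in LM2, against 98.6 and 105 in MDA-MB-231, a difference of 0.19 log2 below the upper quartile of all probes. APOBEC3D, another Vif target, read 91.0 and 87.0 in LM2, against 71.9 and 82.4 in MDA-MB-231. APOBEC3A, a potent mutator induced by interferon in myeloid cells, read 83.9 and 75.2 in LM2, against 94.97 and 76.3 in MDA-MB-231. Both probes averaged less than the median of all probes, and their differences of 0.17 and -0.08 log2 say little about the genes at such intensities. With an array left out, that of APOBEC3D ran from 0.093 (without MDA-MB-231 array A) to 0.26 (without its array B), and that of APOBEC3A from -0.22 (without MDA-MB-231 array B) to 0.048 (without its array A).

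Taking the 11 probes together, both LM2 arrays lay above both MDA-MB-231 arrays for 8, both lay below for none, and 3 overlapped (APOBEC3A, APOBEC3B and the APOBEC3F probe ILMN_2296950). After quantile normalization 10 of the 11 were above, all but APOBEC3A. Over all probes with 1 gene symbol, 16.3% had both LM2 arrays above and 23.9% had both below. The rule used this comparison, so nothing is read from the count. The median difference over the 11 probes was 0.40 log2, and that over all probes was -0.02 log2. LM2 array A exceeded LM2 array B on all 11 probes, while MDA-MB-231 array A was below array B on 9 of them. Over all probes, array A was below array B for 41.7% in LM2 and 54.6% in MDA-MB-231.

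By the Euclidean distance of log2 values centred over the 4 Illumina arrays, the 5 genes of 18851 nearest to APOBEC3G were CHRM3, a muscarinic acetylcholine receptor, IL13RA2, a decoy receptor for interleukin-13, the antisense transcript SLC67A1-AS, the collagen chain gene COL6A1 and the matrix glycoprotein gene SPARC. Their distances ran from 0.31 for CHRM3 to 0.62 for SPARC, and their differences between LM2 and MDA-MB-231 from 2.06 for SLC67A1-AS to 2.88 for SPARC. No other APOBEC3 gene was among them. That follows from the size of their differences, at most 1.33 log2 at the brightest probe, and says nothing about how they vary together.

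The genes on either side of the cluster differed little. None of 12 neighbours passed the test in LM2 against MDA-MB-231, where 0.456% of all probes were called higher and 0.787% lower, 1.24% in all (limma, Benjamini-Hochberg adjusted p under 0.05). These were 128 higher and 221 lower probes, and 155 and 158 after quantile normalization. The neighbours' differences ran from -0.28 for RPL3, a ribosomal protein gene (adjusted p = 0.708, the smallest of the list), to 0.29 for DNAL4. CBX6, a Polycomb gene next to APOBEC3A, read 774 and 651 in LM2, against 628 and 671 in MDA-MB-231. CBX7, next to APOBEC3H, read 182 and 148 in LM2, against 150 and 132 in MDA-MB-231.

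**Figure D2:**
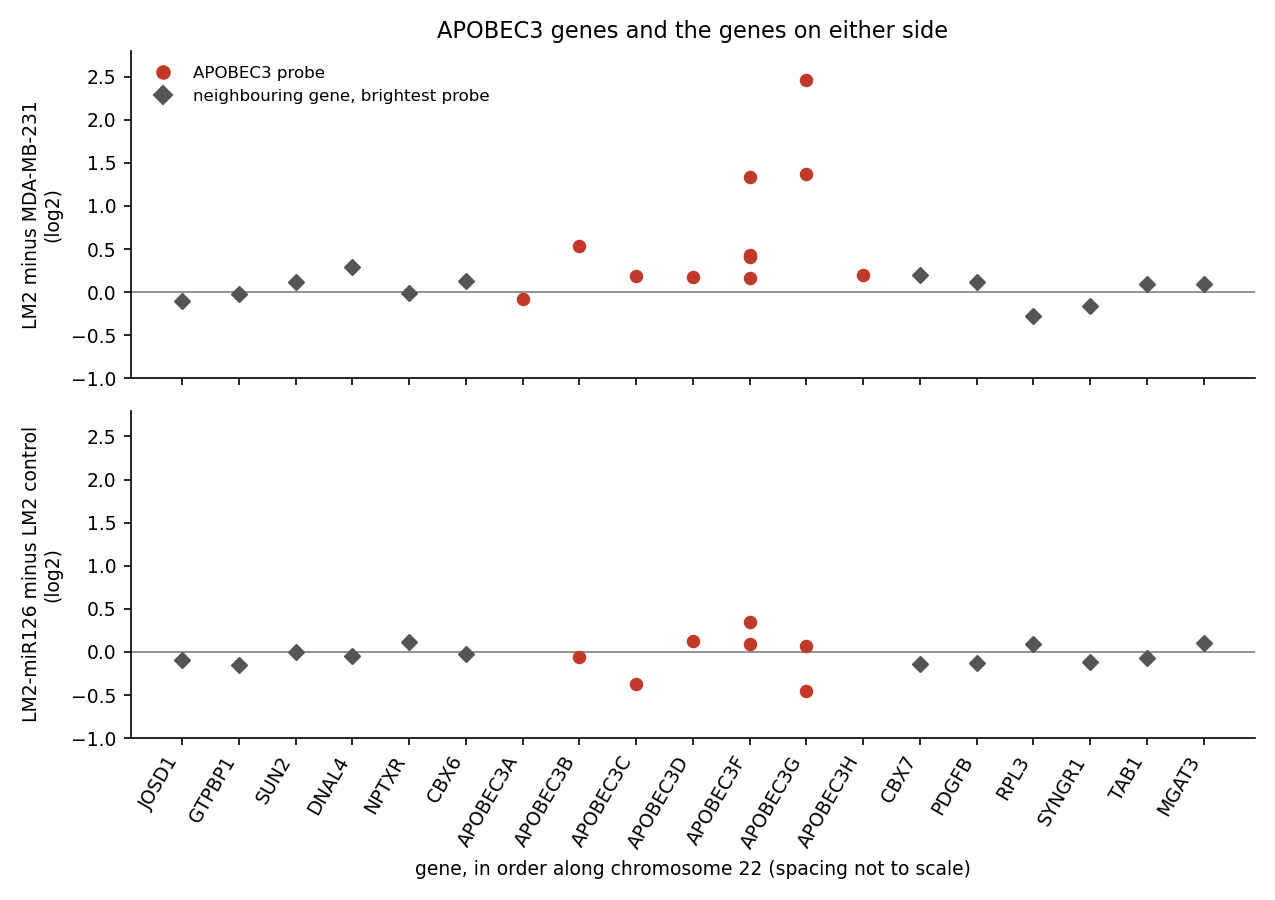
Log2 difference of LM2 minus MDA-MB-231 (top) and LM2-miR126 minus LM2 control (bottom) for APOBEC3 probes (red) and the brightest probe of each neighbouring gene (grey), in gene order along chromosome 22. In the top panel the points above 1 log2 are the 2 APOBEC3G probes and 1 APOBEC3F probe, and the neighbours lie between -0.28 and 0.29.

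Other lists of genes around the APOBEC3 enzymes were read in the same fit. They were chosen with earlier results of these data known. Interferon response genes, which include inducers and companions of the APOBEC3 genes in immune cells, were lower in LM2 where they passed. Of 18 measured, 3 passed as lower in LM2 and none as higher, with a median of -0.20 log2. The direction was mixed. Both LM2 arrays lay below both MDA-MB-231 arrays for 9 of the 18 and above for 3, against 23.9% and 16.3% of all probes. IFI27 read 699 and 367 in LM2, against 3186 and 2148 in MDA-MB-231 (-2.33 log2, SE 0.32, adjusted p = 0.00159). IFIT1, which binds foreign RNA, fell by 1.42 log2 (SE 0.23, adjusted p = 0.0051) and MX1, a GTPase against viruses, by 1.10 log2 (SE 0.25, adjusted p = 0.0454). IFIT1 had an adjusted p of 0.1935 without LM2 array A and stood at -0.88 log2 (adjusted p = 0.0514) with the mean of its probes. MX1 had one of 0.437 without LM2 array A and 0.337 without LM2 array B, and 0.0545 to 0.0678 under quantile normalization, with a pseudocount of 64 or with the mean of probes.

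Of 13 other restriction factors measured, none passed, with a median of -0.01 log2. BST2, which tethers budding virions, had the smallest p and read 421 and 326 in LM2, against 626 and 716 in MDA-MB-231 (-0.83 log2, SE 0.23, adjusted p = 0.118). None of 13 genes of uracil and abasic site repair passed (median -0.07 log2). The smallest p was that of LIG3, a DNA ligase, at -0.53 log2 (SE 0.18, adjusted p = 0.235). None of 9 transcription regulators linked to APOBEC3B passed (median -0.05 log2), the smallest p being that of PRKCA at 0.26 log2 (adjusted p = 0.812). None of 7 Vif and degradation partners passed (median 0.03 log2), the smallest p being that of the cullin gene CUL5 at -0.39 log2 (adjusted p = 0.627). Neither APOBEC1 nor APOBEC4, the relatives outside the cluster that were measured, passed or rose above the median of all probes, with APOBEC4 at 0.12 log2 (adjusted p = 0.784).

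Markers of lymphocytes, myeloid cells, fibroblasts and endothelial cells were set beside the APOBEC3G difference. The summed intensity of 9 lymphocyte markers, none of them above the upper quartile, was 864 and 863 in LM2, against 861 and 853 in MDA-MB-231. That of 10 myeloid markers was 4340 and 3475 in LM2, against 3926 and 4358 in MDA-MB-231, with overlap, and 3 of the 10 lay above the upper quartile. That of 8 fibroblast markers was 1193 and 988 in LM2, against 937 and 760 in MDA-MB-231, and 2 of them lay above the upper quartile. COL1A1 was the member of these lists that passed (1.94 log2, adjusted p = 0.000202). It read 539 and 345 in LM2, against 109 and 92.6 in MDA-MB-231, and carried the higher fibroblast sum in LM2. The median difference over the 8 fibroblast markers was -0.05 log2. The summed intensity of 6 endothelial markers was 600.1 and 565 in LM2, against 539 and 557 in MDA-MB-231. Unsubtracted background makes up much of the lymphocyte and endothelial sums, so their likeness between the lines says little about such cells. The part of fibroblast-type transcripts in the APOBEC3G difference was not tested.

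The other comparison concerns the effect of added miR-126 on LM2 transcripts. No APOBEC3 probe set passed the test. For the APOBEC3G probe set 204205_at and the APOBEC3C probe set the 2 LM2-miR126 arrays lay far apart. On array A both probe sets were well below LM2 control cells, and on array B they were close to or above them. The other APOBEC3G probe set, 215579_at, did not part in this way. It read 1.15 and 1.19 on LM2-miR126 arrays A and B, against 1.13 and 1.11 in LM2 control. Affymetrix values are given as deposited, relative to an array median of 1, while folds, differences, overlaps and tests are on the log2 scale after quantile normalization, so a fold need not equal the ratio of the deposited values beside it. None of the 41091 probe sets passed at an adjusted p under 0.05 (0% called, smallest adjusted p = 0.522), although 3179 had an unadjusted p under 0.05, none of them a member.

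**Figure D3:**
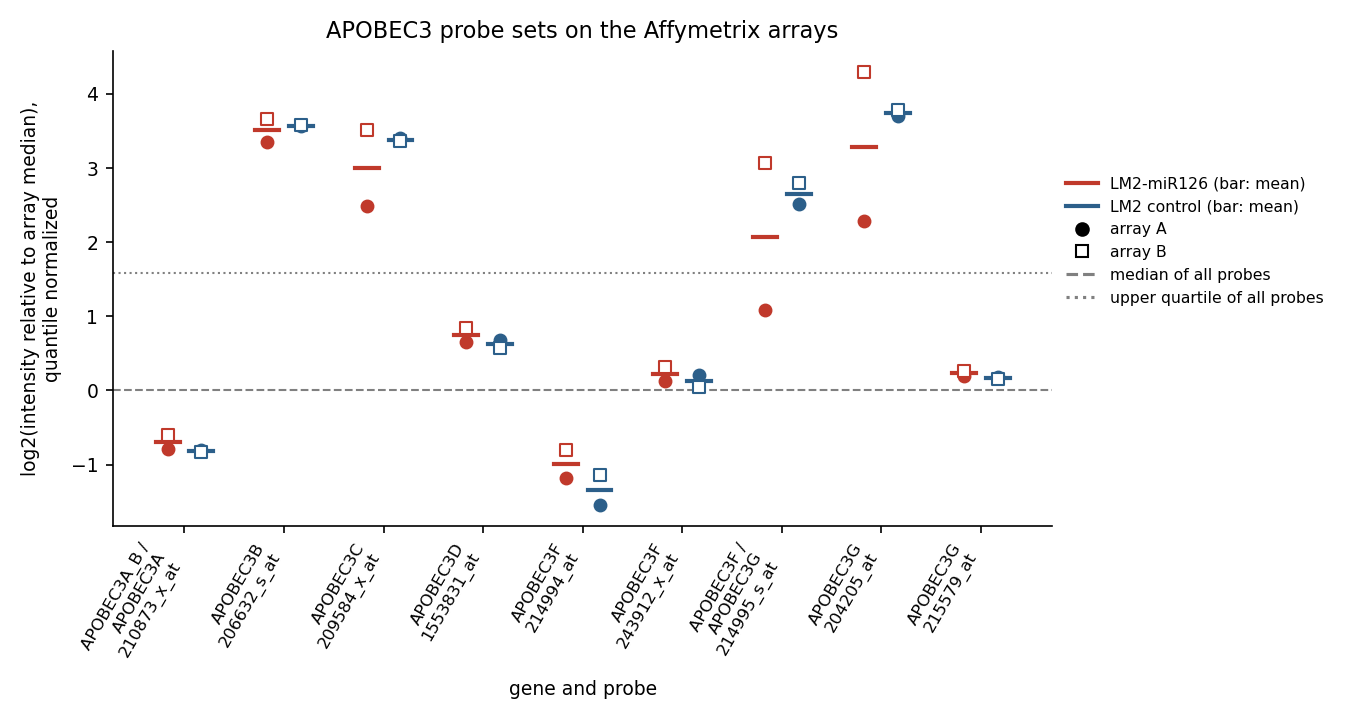
Quantile-normalized log2 intensity, relative to the array median, of each APOBEC3 probe set on the 2 LM2-miR126 arrays (red) and the 2 LM2 control arrays (blue), with bars at the group means. The red circle (array A) and square (array B) are about 2 log2 apart for APOBEC3G 204205_at and for the probe set shared by APOBEC3F and APOBEC3G, while the blue points lie close together.

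The APOBEC3G probe set 204205_at read 5.23 and 18.1 on LM2-miR126 arrays A and B, against 12.9 and 14.2 on LM2 control arrays A and B. After quantile normalization array B was 4.01-fold above array A, and the control arrays lay between them on both scales. The groups differed by -0.46 log2 (SE 0.62, 95% interval -2.01 to 1.09, adjusted p = 0.900 by limma). The direction rested on 1 array. Without LM2-miR126 array A the difference was 0.545 log2 (adjusted p = 0.00447), and without array B it was -1.46 log2 (adjusted p = 0.00016), where the lone array is assumed to vary like the controls. Among the 41091 probe sets ordered by array A minus array B, this one stood at place 38 from the lowest. The other APOBEC3G probe set, 215579_at, read 1.15 and 1.19 in LM2-miR126, against 1.13 and 1.11 in LM2 control, near the median of all probe sets (0.07 log2, adjusted p = 0.913).

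The probe set annotated to both APOBEC3F and APOBEC3G, 214995_s_at, followed the first APOBEC3G probe set. It read 2.17 and 7.62 in LM2-miR126, against 5.66 and 7.17 in LM2 control. After quantile normalization array B was 3.95-fold above array A. The 2 probe sets annotated to APOBEC3F alone were near or below the median of all probe sets. For 214994_at the values were 0.443 and 0.573 in LM2-miR126, against 0.344 and 0.450 in LM2 control (0.35 log2, 95% interval -0.12 to 0.81, adjusted p = 0.713). For 243912_x_at they were 1.10 and 1.23 in LM2-miR126, against 1.15 and 1.035 in LM2 control (0.10 log2, adjusted p = 0.892).

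APOBEC3C, read by 209584_x_at, had 6.04 and 10.5 in LM2-miR126, against 10.4 and 10.6 in LM2 control. Array A was the low one again, 2.04-fold below array B after quantile normalization. Array B lay between the control arrays in deposited values and above both after normalization (3.52 log2, against 3.40 and 3.37 log2). The difference was -0.38 log2 (SE 0.33, 95% interval -1.21 to 0.46, adjusted p = 0.827), 0.14 log2 without array A and -0.89 log2 (adjusted p = 0.000959) without array B. By array A minus array B it stood at place 311 of 41091. The suffix of this probe set, which the APOBEC3F probe set 243912_x_at shares, marks probes that can match other sequences. Paralogs may thus add to the signal of both.

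APOBEC3B differed less between the arrays. Its probe set 206632_s_at read 11.02 and 11.55 in LM2-miR126, against 11.65 and 12.2 in LM2 control, so that both LM2-miR126 arrays were lower in deposited values. After quantile normalization the groups overlapped, at 3.35 and 3.66 log2 in LM2-miR126, against 3.56 and 3.58 log2 in LM2 control, with a difference of -0.06 log2 (SE 0.15, 95% interval -0.43 to 0.30, adjusted p = 0.952). APOBEC3D (1553831_at) read 1.59 and 1.74 in LM2-miR126, against 1.60 and 1.51 in LM2 control (0.12 log2, 95% interval -0.20 to 0.44, adjusted p = 0.862). The probe set shared by APOBEC3A and APOBEC3A_B was below the median of all probe sets, at 0.579 and 0.664 in LM2-miR126, against 0.572 and 0.560 in LM2 control.

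On all 7 probe sets with 1 symbol the normalized value of LM2-miR126 array A was below array B, and for 2 of them by more than 1 log2. Over all probe sets array A was below array B for 52.8%, and by more than 1 log2 for 0.84%. Among those with a mean above the upper quartile, as these 2 have, the latter share was 1.63%. Array A was above array B by more than 1 log2 for 0.767% of all probe sets. In the LM2 control arrays 0.017% had array A below array B by that much. After quantile normalization, both LM2-miR126 arrays stood above both LM2 control arrays for 1 of the 7, 215579_at, and below both for none, against 21% and 17.7% of all probe sets. The median difference was 0.07 log2 over the 7 and 0.01 log2 over all probe sets.

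Genes around the family showed where else the 2 LM2-miR126 arrays parted. Interferon response genes were lower on array A than on array B for 15 of 19 measured, with a median of -0.25 log2, and other restriction factors for 9 of 12, with a median of -0.30 log2. The interferon-induced restriction factor TRIM22, chosen after its values were seen, read 0.816 and 2.44 in LM2-miR126, against 1.502 and 1.65 in LM2 control. BST2 read 6.12 and 8.94 in LM2-miR126, against 8.61 and 8.62 in LM2 control. Genes of uracil and abasic site repair were lower on array A for only 2 of 13, with a median of 0.25 log2. Regulators linked to APOBEC3B were also lower on array A for only 3 of 9, with a median of 0.20 log2. The neighbours of the cluster were split, 7 of 12 with array A lower and a median of -0.06 log2. So were the Vif and degradation partners, with 3 of 7 lower (0.05 log2). Array A was also lower for 7 of 9 lymphocyte markers (median -0.19 log2), 7 of 9 myeloid (-0.19) and 5 of 8 fibroblast markers (-0.17). It was lower for 4 of 6 endothelial markers (-0.10 log2). Most of these markers lay below the upper quartile. For the line's own markers it was lower for 1 of 6 high (0.10 log2) and 3 of 7 low genes (0.13 log2). Lower values on array A were thus not particular to interferon response genes or restriction factors. The median over all probe sets was -0.02 log2. The split was not tested, since it lies within 1 group.

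**Figure D4:**
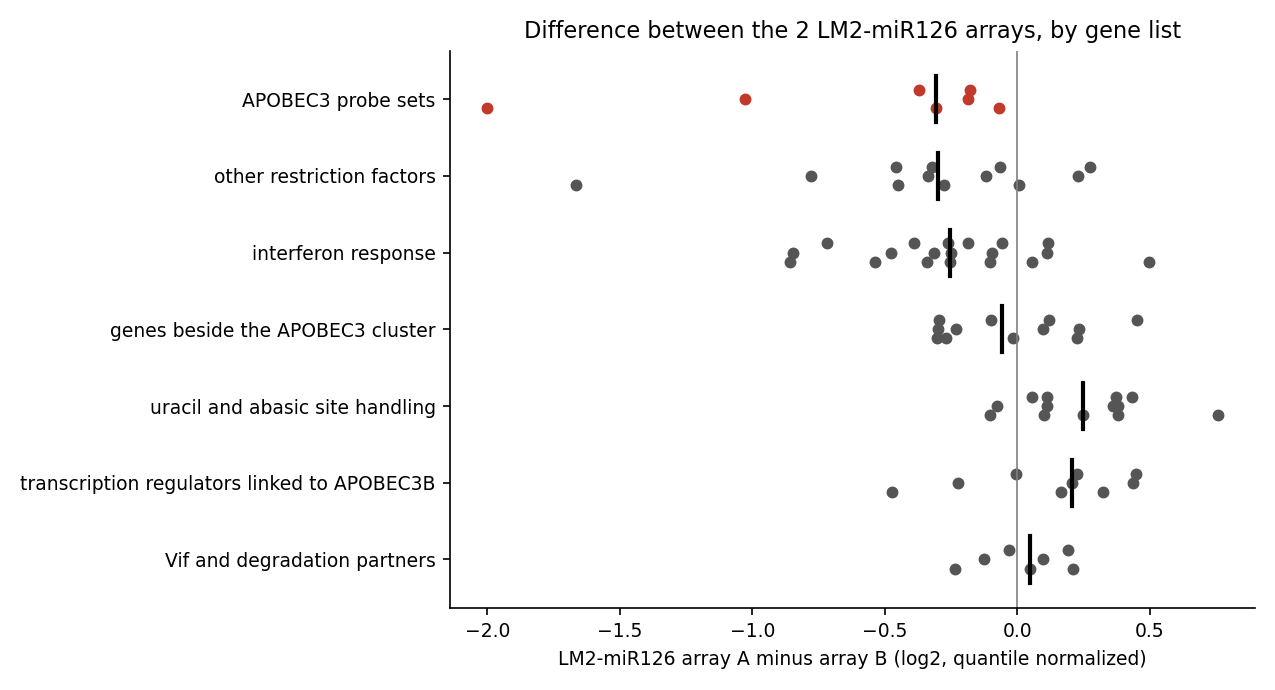
Log2 difference of LM2-miR126 array A minus array B for the 7 APOBEC3 probe sets (red) and the genes of 6 lists (grey, brightest probe set), with black bars at the medians. The points of APOBEC3G 204205_at and APOBEC3C lie at -2.00 and -1.03, that of APOBEC3G 215579_at lies at -0.07, and the list of uracil and abasic site repair lies mostly right of 0.

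None of the listed genes passed between LM2-miR126 and LM2 control cells. The smallest p of each list belonged to the ubiquitin-like ISG15 among interferon genes (0.37 log2, adjusted p = 0.566), the dUTPase gene DUT in repair (0.33 log2, adjusted p = 0.552), NFKB2 among regulators (0.58 log2, adjusted p = 0.611), SAMHD1, which depletes nucleotides, among restriction factors (0.25 log2, adjusted p = 0.730) and CUL5 among Vif partners (0.27 log2, adjusted p = 0.705). RPL3 had it among the neighbours (0.09 log2, adjusted p = 0.763) and APOBEC4 among the relatives outside the cluster (0.11 log2, adjusted p = 0.818). Summed marker levels moved between LM2-miR126 arrays A and B, for myeloid and fibroblast markers mostly through CD14 and COL1A1. Those of 9 lymphocyte markers were 7.58 and 8.59 in LM2-miR126, against 8.07 and 7.55 in LM2 control, and those of 9 myeloid markers 6.88 and 9.64 in LM2-miR126, against 7.96 and 8.12 in LM2 control, with none above the upper quartile. Those of 8 fibroblast markers were 32.4 and 51.4 in LM2-miR126, against 36.4 and 40.3 in LM2 control, with COL1A1, a gene these cells express, as the member above the upper quartile. Those of 6 endothelial markers were 9.27 and 10.25 in LM2-miR126, against 10.7 and 10.3 in LM2 control. Their part in the APOBEC3G values was not tested.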

How the data were processed

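Intensity values deposited by the authors were used, 1 table per platform. The processing software and genome build were not given in the sources used here. Illumina intensities, as deposited, are linear, with lowest values between 43.2 and 46.5, and the Affymetrix ones are relative to each array's median. Probes were named by the platform annotation, updated through RefSeq gene identifiers (28059 of 28098 Illumina and 41037 of 41091 Affymetrix probes matched). Illumina values were taken as log2(value + 16) on their deposited scale, since the arrays' quartiles differed by 0.0493 log2. Affymetrix values were taken as log2 with no pseudocount and quantile normalized, since they differed by 0.164 log2 (limit 0.1). Every probe with 1 symbol entered limma 3.58.1 (R 4.3.3, lmFit, eBayes with a trend), two-sided, with Benjamini-Hochberg adjustment over the table and no filter on dim probes. Of the member probes, 9 of 11 and 6 of 7 would pass a filter at the median of all probes. A listed gene stands at its brightest probe. With 2 arrays a group, exact permutation p-values start at 0.3333. The members and lists were chosen with earlier results of these data known. All members were named, with up to 4 called genes per list or else the gene of smallest p, and the 5 genes most like APOBEC3G. The steps were tested on simulated data with 100 probes changed 2-fold and 100 changed 4-fold per platform. Of these the test recovered 30 and 80 on the Illumina arrays and 16 and 63 on the Affymetrix arrays. It also called 0 and 2 unchanged probes on the 2 platforms. Most 2-fold changes would thus be missed, and a gene that did not pass is not shown to be unchanged. Alternatives changed the scaling, pseudocount, filter, probe rule, variance prior and replicate block, and left out each array. Figures were drawn with matplotlib 3.10.9.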

Additional observations from a re-analysis of the deposited data

How the results depend on the processing

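The number of APOBEC3 probes with both LM2 arrays above both MDA-MB-231 arrays was 8, and 10 under quantile normalization, 10 without LM2 array B or without MDA-MB-231 array B, and 5 of the 7 genes with either the brightest probe or the mean of probes, where fewer features remain. The number with both below was 0, and 0 to 1 with an array left out (1 without LM2 array A or MDA-MB-231 array B). Listed genes lower in LM2 numbered 3, but 1 when probes of a gene were averaged, 7 with the replicate block and 1 to 8 with an array left out (1 without LM2 array A, 8 without MDA-MB-231 array A). Over all probes in LM2 against MDA-MB-231, 128 were higher and 221 lower, against 60 and 101 with the mean of probes, 63 and 120 without a variance trend, 317 and 637 with the replicate block, 51 and 41 without LM2 array A, 96 and 51 without LM2 array B, 220 and 576 leaving out MDA-MB-231 array A, and 451 and 633 without MDA-MB-231 array B. For LM2-miR126 against LM2 control, leaving out an array gave 0 to 1 APOBEC3 probe sets higher, 0 to 2 lower, 0 to 9 listed genes higher and 0 to 6 lower (8 and 3 without LM2-miR126 array A, 9 and 6 without array B), where each count was 0 with all arrays. Over all probe sets the counts were 5 higher and 5 lower with the replicate block, 2020 and 2757 without LM2-miR126 array A, and 2824 and 2604 without array B. With an array left out, the difference ran from -1.46 to 0.545 log2 for APOBEC3G 204205_at, from -0.89 to 0.14 for APOBEC3C and from -0.2155 to 0.092 for APOBEC3B, with the reversed values coming without LM2-miR126 array A. Deviations of same-letter arrays correlated at 0.061 and 0.034 over probes of the 2 platforms, and the labels do not say that the letters pair arrays. The causes of these changes were not tested, and dim probes limit what can be read of APOBEC3A, APOBEC3D and APOBEC3H.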
